A study of Mus musculus with 8 samples.

Results

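The genes described here are 10 immediate-early or closely related transcription factor genes of the AP-1 and EGR families, followed tumor by tumor in mouse lung tumors with and without inactivation of *Setd2*. They are the FOS subunit genes *Fos*, *Fosb*, *Fosl1* and *Fosl2*, the JUN subunit genes *Jun*, *Junb* and *Jund*, the ATF gene *Atf3*, and the zinc finger genes *Egr1* and *Egr3*. They were chosen by symbol and make up 10 of the 48709 genes in the count table. All 10 were found, and 9 passed the filter on low counts and could be tested, the exception being *Egr3*.

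RNA of 8 lung tumors was sequenced, 4 labelled *K-Ctrl* and 4 labelled *K-Setd2KO*. All came from *K* mice, a Cre-activated lung tumor model on a mixed B6J/129S4vJae background, and in both groups tumors were started by intubating mice with the lentiviral vector LentiCRISPRv2Cre. Both groups therefore share the *K* model, Cre, Cas9 and a guide RNA, which was directed at *GFP* in *K-Ctrl* and at *Setd2*, the gene of the enzyme that trimethylates histone H3 at K36, in *K-Setd2KO*. Which cells of a tumor were infected or edited was not measured in these data. The study describes *K-Setd2KO* tumors as low grade adenomas, stage matched to the controls by histology, and the labels give neither the age of the mice nor the time after infection. The design text speaks of tumors flash frozen in liquid nitrogen while the extraction text names cell lines, and this was not resolved. Neither source gives the time from harvest to freezing, or says whether each tumor came from its own mouse, so p-values measure the spread between these samples only.

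AP-1 is a pair of basic leucine zipper proteins, in which a JUN protein binds a FOS, ATF or second JUN protein before it can contact DNA. Growth factors, MAPK signaling, stress and tissue damage switch on *Fos*, *Fosb*, *Jun*, *Junb*, *Atf3*, *Egr1* and *Egr3* within minutes from factors already present in the cell, and the mRNAs decay quickly. *Fosl1*, *Fosl2* and *Jund* respond later or are expressed more steadily. Because cutting, warming and digesting tissue also induces the first 7 genes, those are called rapidly induced here and the other 3 steadier, a division taken from general knowledge and not from these tumors.

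The promoters carry the sequences through which signals reach these genes, so the 4 member promoters in the RefSeq table (GRCm38.p6) with the short CREB and ATF site are shown. Each runs from 250 bases before to 50 bases after the RefSeq start, 5′ to 3′, and capitals mark the CREB and ATF site TGACG, the EGR site GCGNGGGCG and the TATA box TATAAA on either strand:
Fos (chr12:85473640-85473939, plus strand): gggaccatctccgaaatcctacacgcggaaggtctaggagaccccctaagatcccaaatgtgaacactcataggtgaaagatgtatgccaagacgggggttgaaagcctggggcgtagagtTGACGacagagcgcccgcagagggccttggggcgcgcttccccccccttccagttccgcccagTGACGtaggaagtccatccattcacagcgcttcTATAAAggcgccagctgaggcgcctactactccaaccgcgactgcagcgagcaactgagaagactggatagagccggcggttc
Fosb (chr7:19309996-19310295, minus strand): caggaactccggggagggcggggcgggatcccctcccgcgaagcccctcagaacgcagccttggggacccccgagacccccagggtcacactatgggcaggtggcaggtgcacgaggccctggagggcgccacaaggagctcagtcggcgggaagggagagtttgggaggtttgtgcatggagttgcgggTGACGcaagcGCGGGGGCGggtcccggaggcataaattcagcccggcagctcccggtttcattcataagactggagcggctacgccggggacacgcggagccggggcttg
Atf3 (chr1:191183284-191183583, minus strand): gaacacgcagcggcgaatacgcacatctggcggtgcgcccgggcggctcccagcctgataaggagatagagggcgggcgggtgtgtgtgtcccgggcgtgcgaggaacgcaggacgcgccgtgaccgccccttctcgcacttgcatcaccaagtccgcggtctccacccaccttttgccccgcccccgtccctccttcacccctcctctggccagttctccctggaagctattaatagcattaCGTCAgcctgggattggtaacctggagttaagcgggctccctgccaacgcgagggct
Junb (chr8:84978699-84978998, minus strand): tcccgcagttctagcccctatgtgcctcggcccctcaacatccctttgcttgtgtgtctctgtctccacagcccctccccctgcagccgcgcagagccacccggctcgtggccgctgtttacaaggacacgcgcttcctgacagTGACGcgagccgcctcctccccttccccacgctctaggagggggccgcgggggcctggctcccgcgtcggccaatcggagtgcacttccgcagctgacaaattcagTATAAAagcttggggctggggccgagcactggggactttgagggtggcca

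That short site was found in 4 of the 7 member promoters listed there and in 20.8% of the 32817 promoters of the same length. In *Fos*, whose product is the founding FOS subunit, it began at −129 and −66, counted from the RefSeq start, and a TATA box began at −33. The *Fosb* promoter held it at −60, 10 bases ahead of an EGR site at −50. An EGR site also stood in the *Fosl2* promoter at −79, and 5.56% of all promoters held one. No full cAMP response element (TGACGTCA, in 1.79% of promoters), AP-1 site (TGANTCA, in 7.81%) or CArG box of serum response factor (in 1.63%) was in these windows, which says only that those letters are absent there. A match is a description and not a measured binding site. *Jund*, *Jun* and *Fosl2* are in the table but lack the short site in these windows, and *Fosl1*, *Egr1* and *Egr3* were not matched. The RefSeq start lies 34706 bases inside the *Atf3* gene of the count table, 1210 bases before the *Jund* gene and 671 bases inside *Fosl2*, so those windows are not at the listed gene starts, whereas the starts of *Fos*, *Fosb*, *Jun* and *Junb* lie within 30 bases.

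The members are compact genes. Their genomic spans ran from 1668 bases in *Jund* to 47744 in *Atf3*, and 8 of 10 were under 10000 bases, as were 23.6% of the 13354 protein-coding genes tested. All 10 had at most 5 merged exon blocks, against 24.3% of those genes, and *Jun* and *Jund* had 1. The pentamer ATTTA, the core of AU-rich elements that shorten mRNA life, occurred at 4.91 copies per kilobase in the 3′ untranslated region of *Fos* (GENCODE M21, 4 copies in 815 bases), 4.12 in that of *Junb* and 3.24 in that of *Jun*. The median over 12939 tested genes was 1.25 per kilobase. *Fosb* was below it, with 1 copy in 2145 bases. The other rapidly induced members had 2.65 (*Egr3*), 2.53 (*Atf3*) and 1.65 (*Egr1*) copies per kilobase. The steadier ones had 1.88 (*Jund*), 1.72 (*Fosl2*) and 1.57 (*Fosl1*), so the density did not separate rapidly induced from steadier members.

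Values below are CPM, read counts scaled by library total and TMM factor. In bulk tumor RNA, fewer cells of a type and less RNA per cell cannot be told apart. Library totals spanned 5806599 to 21290402 counts, 3.67-fold, and 3 counts corresponded to between 0.141 and 0.517 CPM. *Setd2* mRNA does not separate the groups (edgeR adjusted p 0.824, log2 fold change −0.05 with SE 0.115), so the labels rest on the design and not on this gene's level. Genes read from the Y chromosome and *Xist* put 1 female and 3 male tumors in *K-Ctrl* and 3 female and 1 male in *K-Setd2KO*, so sex and genotype overlap in part.

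Across the family, 1 of the 9 members tested passed the threshold in edgeR's quasi-likelihood test (adjusted p under 0.05 over all 14929 genes). It was *Fosb*, and it was lower in *K-Setd2KO*. Among all genes tested, 12.7% were called in either direction, 7.74% as lower and 4.97% as higher, so 1 call in 9 is near the background. The median log2 fold change was −0.20 over the 9 members and 0.03 over all genes, with 7 members at negative and 2 at positive values. The 4 and 4 tumors did not overlap in *Fosb* alone among the tested members, and in the untested *Egr3*, while 20.3% of all tested genes showed no overlap.

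**Figure D1:**
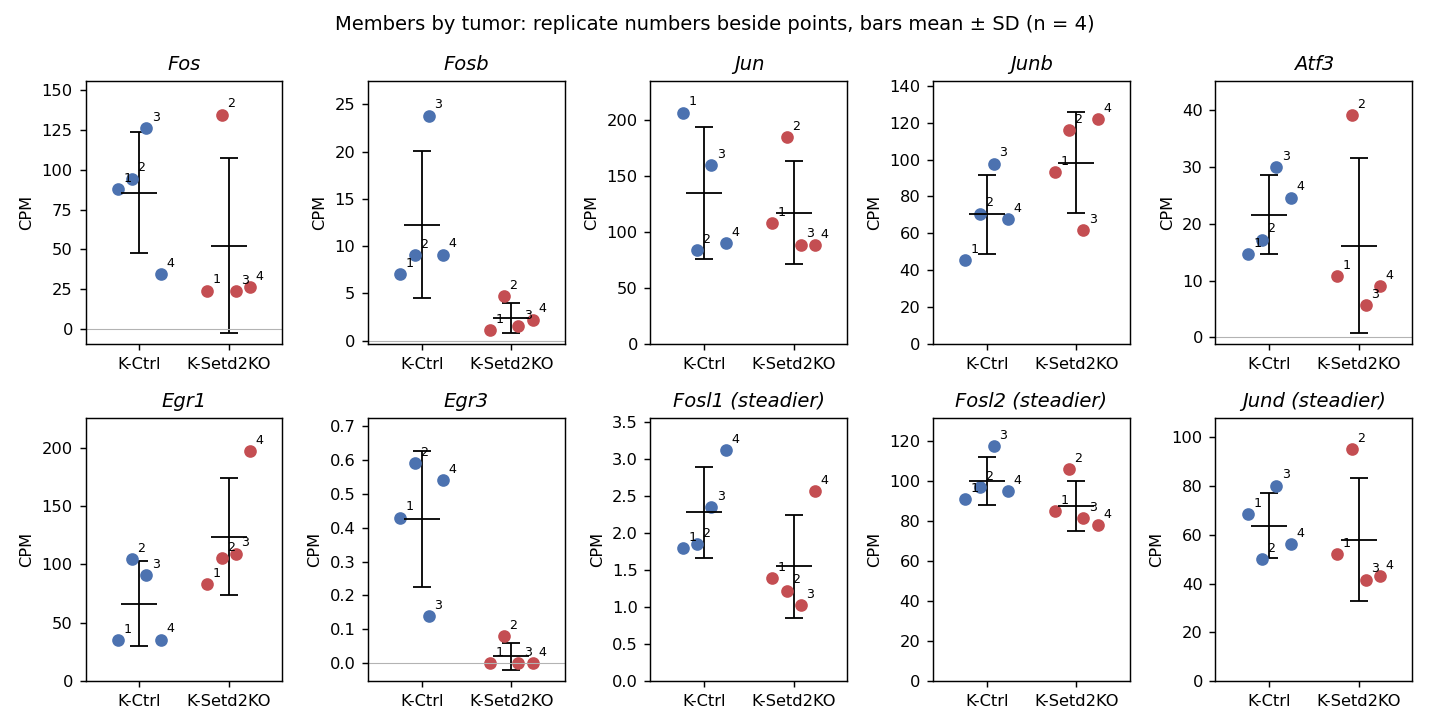
CPM of each of the 10 members (vertical axes, linear) in the 4 K-Ctrl (blue) and 4 K-Setd2KO (red) tumors, with replicate numbers beside the points and bars for mean ± SD. K-Setd2KO replicate 2 stands above the other K-Setd2KO tumors in Fos (134.85 CPM) and Atf3 (39.16 CPM), while for Fosb all 4 K-Setd2KO tumors lie below all controls.

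*Fosb* encodes a rapidly induced FOS subunit (ENSMUSG00000003545.3, chromosome 7, 19302696 to 19310051, minus strand, 2 exon blocks). The *K-Ctrl* tumors had 7.08, 9.08, 23.8 and 9.10 CPM in replicates 1 to 4, and the *K-Setd2KO* tumors 1.08, 4.74, 1.57 and 2.22 CPM. Every *K-Setd2KO* tumor was below every control, and *K-Ctrl* replicate 3 was more than 2 times any other tumor. The mean fell from 12.3 ± 7.76 to 2.40 ± 1.63 CPM (SD, n = 4 each), a log2 fold change of −2.35 (SE 0.556, edgeR adjusted p 0.0273), or 5.12-fold. The two-sided exact permutation p on log2 CPM was 0.0286, the smallest that 70 assignments of 4 and 4 tumors can give.

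The *Fosb* call did not hold in every fit. It was lost without *K-Ctrl* replicate 3 (log2 fold change −1.81, edgeR adjusted p 0.0732), without *K-Setd2KO* replicates 1, 3 or 4 (log2 fold change −2.08, −2.19 and −2.33, adjusted p 0.0554, 0.0765 and 0.0616) and with sex as a term (−2.38, adjusted p 0.0816), while its direction was kept in all 18 alternatives. The 9 genes of the leukocyte marker list that were called lower moved with it: the summed level of the 10 markers was 731.5 to 1372 CPM in the *K-Ctrl* tumors, against 265.6 to 358.3 CPM in those of *K-Setd2KO*, and their part in the *Fosb* difference was not tested.

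*Fos* is the partner that gives AP-1 its strongest inducible activity (ENSMUSG00000021250.13, chromosome 12, 85473890 to 85477273, plus strand, 4 exon blocks). It reached 87.9, 94.5, 126 and 34.4 CPM in *K-Ctrl* replicates 1 to 4 and 24.0, 135, 23.8 and 26.5 CPM in *K-Setd2KO* replicates 1 to 4. *K-Ctrl* replicate 4 lay near the 3 low *K-Setd2KO* tumors, and *K-Setd2KO* replicate 2 was the highest of all 8. The group means were 85.7 ± 38.1 and 52.3 ± 55.0 CPM (SD, n = 4 each), and the difference was smaller than the spread (edgeR adjusted p 0.491, log2 fold change −0.71 with SE 0.635).

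*Fosb* was also set against *Fos* within each tumor. *K-Setd2KO* replicate 2 had the highest *Fos* of the study and the highest *Fosb* of its group, 4.74 CPM, which was still below the lowest control at 7.08. The log2 ratio of *Fosb* to *Fos* CPM was −3.63, −3.38, −2.41 and −1.92 in *K-Ctrl* and −4.48, −4.83, −3.92 and −3.58 in *K-Setd2KO*. The groups overlapped only through *K-Ctrl* replicate 1 and *K-Setd2KO* replicate 4. These ratios are given as a description and were not tested.

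Neither of the 2 later FOS subunits passed the test. *Fosl2*, which encodes FRA-2 (ENSMUSG00000029135.10, chromosome 5, 32135801 to 32157842, plus strand), had 90.9, 97.2, 118 and 95.1 CPM in the *K-Ctrl* tumors, against 85.0, 106, 81.4 and 78.1 CPM in those of *K-Setd2KO* (edgeR adjusted p 0.378, log2 fold change −0.19 with SE 0.137). Only *K-Setd2KO* replicate 2 reached the range of the controls. *Fosl1*, which encodes FRA-1 and is a known target of MAPK signaling (ENSMUSG00000024912.5, chromosome 19, 5447703 to 5455945, plus strand), was scarce, at 1.79, 1.85, 2.35 and 3.12 CPM in the *K-Ctrl* tumors, against 1.39, 1.22, 1.02 and 2.57 CPM in those of *K-Setd2KO*. Its groups overlapped through *K-Setd2KO* replicate 4 (edgeR adjusted p 0.355, log2 fold change −0.59 with SE 0.398), on 11 to 51 counts per tumor.

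Per kilobase of exon, *Fos* and *Fosl2* together made up nearly all of the FOS family signal. *Fos* held 76.4%, 76.2%, 75.6% and 52.7% of the summed CPM per kilobase of the 4 FOS genes in *K-Ctrl* replicates 1 to 4. It held 51.1%, 82.2%, 52.2% and 53.2% in *K-Setd2KO* replicates 1 to 4. Both genotypes held tumors near each of these 2 levels, with *K-Ctrl* replicate 4 beside *K-Setd2KO* replicates 1, 3 and 4. The share of *Fosl2* ran the other way, from 17.1% to 35.4% in *K-Ctrl* and from 15.7% to 43.9% in *K-Setd2KO*. *Fosb* took 2.32% to 5.37% in *K-Ctrl* and 0.864% to 1.68% in *K-Setd2KO*, without overlap.

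**Figure D2:**
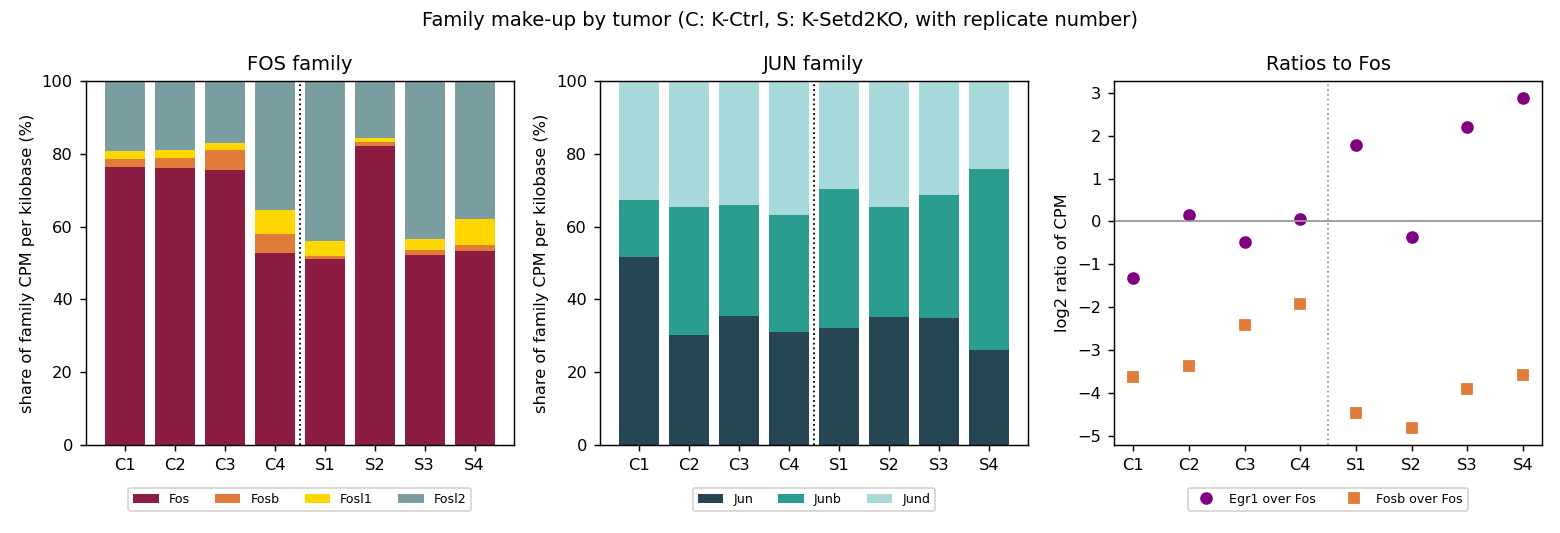
Stacked bars give each gene's share (%) of the summed CPM per kilobase of the FOS genes (left) and JUN genes (middle) in each tumor, and points (right) give the log2 ratios of Egr1 and Fosb CPM to Fos CPM. C and S mark K-Ctrl and K-Setd2KO with the replicate number. Fos takes 75.6% to 76.4% of the FOS signal in C1 to C3, 82.2% in S2, and 51.1% to 53.2% in C4, S1, S3 and S4.

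*Jun* encodes the subunit that activates most strongly with FOS (ENSMUSG00000052684.4, chromosome 4, 95049034 to 95052222, minus strand). It had 207, 84.0, 159 and 89.96 CPM in the *K-Ctrl* tumors, against 108, 185, 88.8 and 88.1 CPM in those of *K-Setd2KO*. The groups overlapped throughout, with *K-Ctrl* replicates 1 and 3 and *K-Setd2KO* replicate 2 above the rest (edgeR adjusted p 0.734, log2 fold change −0.20 with SE 0.345). Without *K-Ctrl* replicate 1 the value was 0.08. *Jun* shares 232 exon bases with the antisense RNA *Junos*, which rose in *K-Setd2KO* (9.23 to 21.2 CPM, log2 fold change 1.20, edgeR adjusted p 0.0338). Whether counting used the strand of these reads is not stated in the sources used here.

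*Jund*, the steady JUN subunit (ENSMUSG00000071076.6, chromosome 8, 70698949 to 70700616, plus strand), had 68.4, 50.2, 80.2 and 56.1 CPM in the *K-Ctrl* tumors, against 52.2, 95.2, 41.6 and 43.0 CPM in those of *K-Setd2KO*. *K-Setd2KO* replicate 2 was again the highest tumor, and the groups overlapped (edgeR adjusted p 0.784, log2 fold change −0.13 with SE 0.278). That tumor was also the highest in *Fos* and *Atf3*.

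*Junb*, a JUN subunit that often restrains growth and competes with *Jun* (ENSMUSG00000052837.6, chromosome 8, 84974484 to 84978718, minus strand), had the higher mean in *K-Setd2KO*. It had 45.7, 70.8, 97.8 and 67.6 CPM in the *K-Ctrl* tumors, against 93.2, 116, 61.9 and 122 CPM in those of *K-Setd2KO*. *K-Setd2KO* replicates 1 and 3 lay within the range of the controls, and the difference did not pass the test (edgeR adjusted p 0.260, log2 fold change 0.48 with SE 0.265). It shares 173 of 2301 exon bases with *Prdx2* on the opposite strand, which did not pass the test either (0.34, edgeR adjusted p 0.112).

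*Jund* shares 877 of its 1668 exon bases with *Gm11175* on the opposite strand, which is listed at 0 CPM in both groups. Because the strand setting is not stated, reads lost there would lower the per-kilobase level of *Jund* and change every share and rank below that uses it.

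By share of the JUN family signal per kilobase, *Jund* was the most even, at 32.6% to 36.9% in *K-Ctrl* and 24.2% to 34.5% in *K-Setd2KO*. *Jun* took 51.6% in *K-Ctrl* replicate 1 and 26.0% to 35.6% in the other 7 tumors. In that same tumor *Junb* was at its lowest share, 15.8%, against 30.2% to 49.8% elsewhere. *K-Ctrl* replicate 1 also had the highest summed endothelial markers (2059 CPM, against 593 to 1117 in the other controls) and erythroid markers (805 CPM, against 150.4 to 403.5), and their part in its *Jun* level was not tested. The highest *Junb* share was in *K-Setd2KO* replicate 4.

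*Atf3*, a stress-induced ATF subunit that often represses transcription (ENSMUSG00000026628.13, chromosome 1, 191170296 to 191218039, minus strand), was highest in *K-Setd2KO* replicate 2, as *Fos* was. It had 14.7, 17.2, 30.1 and 24.6 CPM in the *K-Ctrl* tumors, against 10.8, 39.2, 5.63 and 9.07 CPM in those of *K-Setd2KO*. The 3 tumors other than *K-Setd2KO* replicate 2 were below every control, and that replicate was above every control (edgeR adjusted p 0.663, log2 fold change −0.41 with SE 0.560).

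*Egr1*, a zinc finger activator and the most used marker of immediate-early transcription (ENSMUSG00000038418.7, chromosome 18, 34859823 to 34864984, plus strand), had its higher values in *K-Setd2KO*. Its levels were 35.2, 104, 90.6 and 35.5 CPM in the *K-Ctrl* tumors, against 83.3, 105, 109 and 197 CPM in those of *K-Setd2KO*. Controls split into 2 low and 2 higher tumors, and the higher pair overlapped *K-Setd2KO*. Means were 66.4 ± 36.3 and 124 ± 50.2 CPM (SD, n = 4 each), and the difference did not pass the test (log2 fold change 0.89, SE 0.418, edgeR p 0.0615, adjusted p 0.190).

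The log2 ratio of *Egr1* to *Fos* CPM was −1.32, 0.14, −0.48 and 0.05 in *K-Ctrl* and 1.79, −0.36, 2.20 and 2.89 in *K-Setd2KO*. *K-Setd2KO* replicates 1, 3 and 4 were above all controls, and replicate 2 lay within their range. *Egr1* and *Fos* thus did not move as 1 unit across tumors, although both are rapidly induced genes.

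*Egr3*, a zinc finger gene with roles in lymphocytes and muscle spindles (ENSMUSG00000033730.3, chromosome 14, 70077445 to 70080157, plus strand), was close to the detection floor. Raw counts were 7, 7, 3 and 6 in *K-Ctrl* and 0, 1, 0 and 0 in *K-Setd2KO*. These correspond to 0.43, 0.59, 0.14 and 0.54 CPM in the *K-Ctrl* tumors, against 0.08 CPM in those of *K-Setd2KO* replicate 2. Summed, 23 counts of 60184196 stood against 1 of 50547198, a ratio of 0.0518 with a 95% exact binomial interval of 0.00126 to 0.319 that covers counting error only. Without the filter the edgeR adjusted p was 0.0818. The counts at 0 allow up to 3 counts per tumor, which reaches 0.517 CPM in the shallowest library, so absence cannot be read from them.

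Levels between genes were compared per kilobase. In *K-Ctrl* the order of mean CPM per kilobase was *Jun* (42.3), *Jund* (38.2), *Fos* (36.5), *Junb* (30.6), *Egr1* (14.8), *Fosl2* (10.4), *Atf3* (10.1), *Fosb* (1.97), *Fosl1* (1.34) and *Egr3* (0.299). Each neighbor overlapped the next over the 4 tumors except *Atf3* above *Fosb* and *Fosl1* above *Egr3*. In *K-Setd2KO* *Junb* came first (42.7), *Egr1* moved ahead of *Fos* (27.6 against 22.2) and *Fosl1* ahead of *Fosb* (0.907 against 0.385). The *Fos* mean was carried by *K-Setd2KO* replicate 2, at 57.3 against 10.1 to 11.3 CPM per kilobase in the other 3, and *Fos* overlapped *Egr1* only through that tumor. *Fosl1* and *Fosb* also overlapped, and *Atf3* and *Fosb* were each separate from the gene after them.

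The members differed widely in how much they varied between tumors of one genotype. The within-group SD of log2 CPM was 1.04 for *Fos*, 0.90 for *Atf3*, 0.81 for *Fosb*, 0.70 for *Egr1*, 0.57 for *Jun* and 0.45 for *Junb*. Among the steadier members it was 0.45 for *Fosl1*, 0.44 for *Jund* and 0.18 for *Fosl2*. The median over all tested genes was 0.33, and *Fos* stood above 93.0% of them, *Fosb* above 87.1% and *Fosl2* above 17.6%. *Fosl2* was thus the one steadier member below the typical gene, and *Junb*, a rapidly induced gene, varied as much as *Fosl1*.

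Leaving out the tumor that stood apart, *K-Setd2KO* replicate 2, moved these results. In that setting 3 of 9 members were called lower, namely *Fosb* (log2 fold change −2.98, edgeR adjusted p 0.0146), *Fos* (−1.80, adjusted p 0.0245) and *Atf3* (−1.35, adjusted p 0.0330), where 7.97% of all genes were called lower. *Jun* (−0.51, edgeR adjusted p 0.318), *Jund* (−0.49, adjusted p 0.118) and *Fosl2* (−0.30, adjusted p 0.143) were not called. *Junb* and *Egr1* kept positive values (0.38 and 0.95). This tumor was singled out because it was high in *Fos* and *Atf3*, so leaving it out was bound to lower their *K-Setd2KO* means. The labels give no reason to set this tumor aside, so the values with all 8 tumors remain the result.

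**Figure D3:**
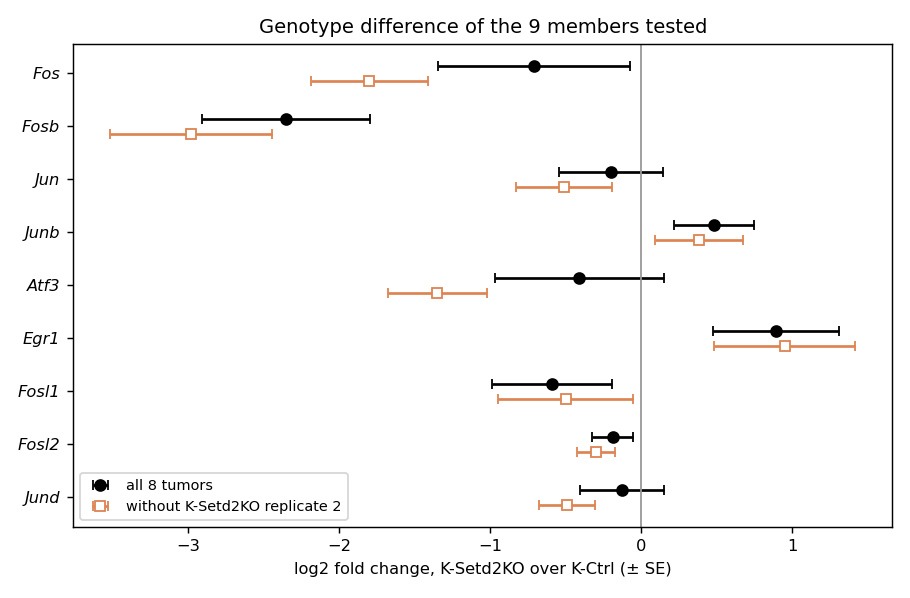
Log2 fold change of K-Setd2KO over K-Ctrl (horizontal axis) with SE for the 9 members tested, with all 8 tumors (filled circles) and without K-Setd2KO replicate 2 (open squares). Fos moves from −0.71 to −1.80 and Atf3 from −0.41 to −1.35, while Egr1 (0.89 and 0.95) and Junb (0.48 and 0.38) stay on the higher side.

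The same tumors were high in other immediate-early genes. Among 35 tested genes of a list of 38, *K-Setd2KO* replicate 2 was the highest *K-Setd2KO* tumor for 25 (71.4%), against 26.5% of all tested genes. *K-Ctrl* replicate 3 was the highest control for 26 (74.3%), against 18.1% of all tested genes. That control also had the most macrophage marker RNA, 6100 CPM summed over 9 markers against 2022 to 3678 in the other controls, whose part in its *Fosb* and immediate-early levels was not tested. *Nr4a1*, an orphan nuclear receptor gene, reached 128 CPM in *K-Setd2KO* replicate 2 and 5.99 to 21.0 CPM in the other *K-Setd2KO* tumors. *Dusp1*, a phosphatase gene that shuts off MAPK signaling, had 105, 82.0, 144 and 48.5 CPM in the *K-Ctrl* tumors, against 20.7, 80.2, 26.6 and 14.03 CPM in those of *K-Setd2KO*.

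Of these 35 genes, 4 fell and none rose in edgeR's test with all tumors (12 had an unadjusted p under 0.05, DESeq2 called 8 lower and 1 higher, and limma voom 4 lower), with a median log2 fold change of −0.36. Beside these 4 of 35, 7.74% of all genes were called lower. *Ccn1*, a matrix protein gene driven by serum response factor and YAP, fell from 121 ± 15.0 to 43.5 ± 8.41 CPM (means ± SD of 4 tumors; edgeR adjusted p 0.00453, log2 fold change −1.48 with SE 0.162), with no overlap. *Egr2* fell from 20.1 to 6.86 CPM (−1.53, edgeR adjusted p 0.0213), *Tnfaip3*, an NF-κB feedback gene, from 46.5 to 18.0 CPM (−1.36, adjusted p 0.0287) and *Ccn2* from 125 to 58.5 CPM (−1.09, adjusted p 0.0436). *Ccn1* was called whichever tumor was left out, while *Egr2* was called in 4, *Tnfaip3* in 3 and *Ccn2* in 2 of 8 such fits, and the *Ccn2* call was also lost with the sex term (edgeR adjusted p 0.0797). Without *K-Setd2KO* replicate 2, 11 of the 35 were called lower, where 7.97% of all genes were called lower. The 11 included *Nr4a2* (−2.60, edgeR adjusted p 0.00431), *Nr4a3* (−2.46, adjusted p 0.0119), *Dusp1* (−2.21, adjusted p 0.0139) and *Zfp36* (−1.20, adjusted p 0.0391). That tumor was the highest of its group in 25 of the 35 genes. Leaving it out was thus bound to lower many of them, and this count is a description only.

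**Figure D4:**
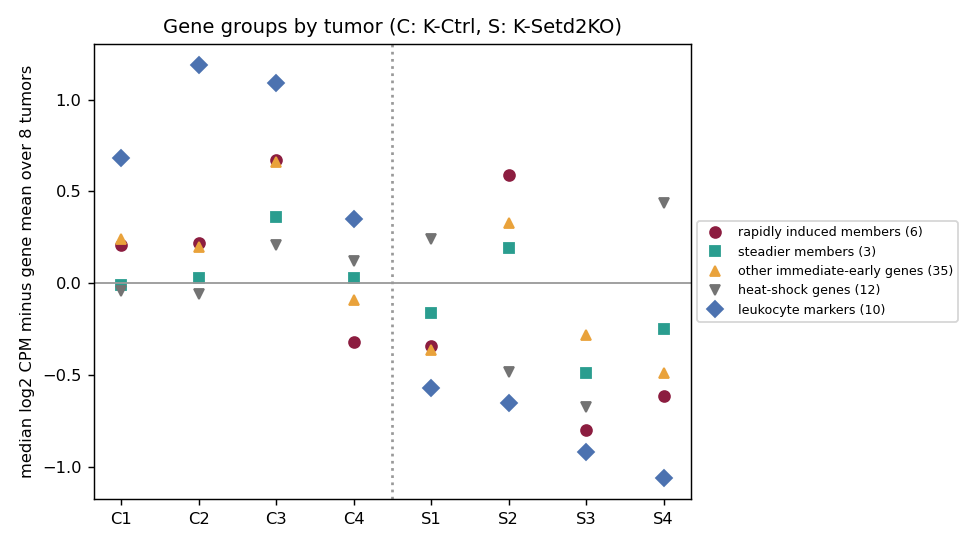
For each tumor (C: K-Ctrl, S: K-Setd2KO, with replicate number), the median over a gene group of log2 CPM minus that gene's mean over the 8 tumors. Rapidly induced members stand highest in C3 (0.67) and S2 (0.59) and other immediate-early genes likewise (0.66 and 0.33), while leukocyte markers are at 0.35 to 1.19 in all C tumors and −1.06 to −0.57 in all S tumors. Heat-shock genes are at −0.48 in S2 and at −0.67 in S3, where rapidly induced members are at −0.80.

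Heat-shock genes, which also respond to tissue handling, were counted beside these. None of 12 was called by edgeR (0 with an unadjusted p under 0.05), DESeq2 or limma voom, and the median log2 fold change was −0.09. In *K-Ctrl* replicates 1 to 4 their median deviation was −0.04, −0.06, 0.21 and 0.12, while by summed CPM replicate 4 (7281) was above replicate 3 (6715). The median deviation was −0.48 in *K-Setd2KO* replicate 2, where the rapidly induced members stood at 0.59, and 0.44 in *K-Setd2KO* replicate 4, where those members stood at −0.61. In *K-Setd2KO* replicate 1 the heat-shock genes were at 0.24 and those members at −0.34. Both groups of genes were at their lowest in *K-Setd2KO* replicate 3, at −0.67 and −0.80. The gene with the smallest p was the chaperone gene *Hsp90aa1* (578 ± 48.6 and 463 ± 181 CPM, SD, n = 4 each; log2 fold change −0.32, edgeR adjusted p 0.430).

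The genes whose levels were most like *Fos* were sought among 11368 genes of at least 5 CPM, as the Pearson correlation over 8 tumors of log2 CPM with the group means removed. The highest were *Ech1* (0.981), *Pik3ca* (0.964), *Zfp36* (0.963), *Tmem216* (0.955) and *Snx18* (0.954). Among members, *Jund* (0.835), *Fosl2* (0.800), *Fosb* (0.742), *Atf3* (0.720) and *Jun* (0.710) followed *Fos*, and *Junb* (0.383) and *Egr1* (0.254) did so least. These values describe 8 libraries made with the same kit at different depths. Without *K-Setd2KO* replicate 2, over 7 tumors, the value was 0.939 for *Ech1* and 0.885 for *Zfp36*, but 0.441 for *Jund*, 0.489 for *Fosl2*, 0.460 for *Fosb* and −0.036 for *Atf3*, and it was higher for *Egr1* (0.615). The likeness of *Atf3* to *Fos* thus came from that 1 tumor.

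Partners, regulators and targets of the members were counted from lists. Of 17 dimer partner genes, 3 were called lower and none higher by edgeR (4 with an unadjusted p under 0.05, DESeq2 called 3 lower, limma voom 1 lower and neither any higher, median −0.18). Beside these 3 of 17, 7.74% of all genes were called lower. *Creb5*, a CREB and ATF family gene, fell from 16.9 ± 3.05 to 4.04 ± 1.40 CPM (edgeR adjusted p 0.00635, log2 fold change −2.07 with SE 0.281), whichever tumor was left out. *Batf*, the AP-1 partner of lymphoid and myeloid cells, fell from 4.66 to 1.07 CPM (−2.05, edgeR adjusted p 0.0475), and *Maf*, a macrophage and T cell factor, from 23.4 to 9.95 CPM (−1.24, adjusted p 0.0483). The last 2 calls held in 2 and 1 of 8 fits with a tumor left out, and the leukocyte markers moved with them, whose part was not tested.

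Among 17 genes of inducing factors and kinases, 1 fell, near the 7.74% of all genes called lower. It was *Rps6ka5*, which encodes the nuclear kinase MSK1 that phosphorylates histone H3 and CREB at immediate-early genes, at 11.9, 12.4, 13.7 and 8.48 CPM in the *K-Ctrl* tumors, against 3.13, 3.75, 4.89 and 1.37 CPM in those of *K-Setd2KO* (edgeR adjusted p 0.0145, log2 fold change −1.80 with SE 0.349). Of 11 repressor and turnover genes, 2 rose, where 4.97% of all genes were called higher. *Nab2*, the corepressor that binds EGR proteins and is itself induced by them, had 18.8, 23.2, 25.3 and 28.7 CPM in the *K-Ctrl* tumors, against 65.4, 75.0, 39.9 and 57.9 CPM in those of *K-Setd2KO* (edgeR adjusted p 0.00834, log2 fold change 1.31 with SE 0.211). *Hdac3*, a deacetylase of repressor complexes, rose from 43.3 to 65.1 CPM (0.59, edgeR adjusted p 0.0132). *Rps6ka5*, *Nab2* and *Hdac3* were called whichever tumor was left out, and each separated the genotypes without overlap.

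Of 27 tested genes in a list of 30 AP-1 and EGR targets, 3 rose and 2 fell in edgeR's test (5 and 4 by DESeq2, 3 and 2 by limma voom, median −0.14). Over all genes tested, edgeR called 4.97% higher and 7.74% lower. *Areg* and *Ereg*, both EGFR ligand genes, rose from 48.0 ± 13.1 to 158 ± 92.1 CPM (log2 fold change 1.73, edgeR adjusted p 0.0226) and from 59.3 ± 25.3 to 153 ± 48.7 CPM (1.37, adjusted p 0.0335), and *Hmox1*, a heme oxygenase gene of the oxidative stress response, from 39.3 ± 7.36 to 87.0 ± 20.2 CPM (1.14, adjusted p 0.0104; SD, n = 4 each). With a tumor left out *Areg* was called in 5 and *Ereg* in 2 of 8 fits, *Areg* was lost with the sex term (edgeR adjusted p 0.0606), and the groups overlapped in *Ereg*. *Mmp2*, a matrix protease gene that was named after its values were seen, fell from 26.7 to 8.05 CPM (−1.74, edgeR adjusted p 0.0492), a call lost in all 8 fits with a tumor left out and with the sex term (adjusted p 0.0717). *Areg* was highest in *K-Setd2KO* replicate 2, at 291 CPM.

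Cell type markers moved with genotype beside all of these genes. Of 9 macrophage markers 5 were called lower, of 10 endothelial markers 2 and of 8 fibroblast markers 2, whereas 3 of 10 epithelial markers were called higher. The shares over all genes were 7.74% lower and 4.97% higher. The endothelial count was 7 by DESeq2 and 1 by limma voom. *Ptprc*, the pan-leukocyte CD45 gene, fell from 231 to 54.5 CPM (log2 fold change −2.08, edgeR adjusted p 0.00560), and *Epcam*, an epithelial adhesion gene, rose from 243 to 453 CPM (0.90, adjusted p 0.0177). The *Epcam* call was lost with the sex term (edgeR adjusted p 0.0544) and in 1 of 8 fits with a tumor left out. The summed leukocyte markers of *K-Setd2KO* replicate 2, at 335.5 CPM, lay within the range of the other 3 of its group. Its summed epithelial markers, at 3544 CPM, were above the 2854 to 3089 CPM of the other 3. In that tumor 6 of the 9 tested members, *Fos*, *Fosb*, *Fosl2*, *Jun*, *Jund* and *Atf3*, had their highest value of the group. Among 8 alveolar type 2 markers 1 was called higher and 1 lower, and their summed level was 46150 to 68610 CPM in *K-Ctrl* and 54890 to 78570 CPM in *K-Setd2KO*, so the labelled lung epithelium was present in every tumor. No marker was at 0 in all tumors, and the part of cell makeup in the member values was not tested.

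Within sexes the members gave 1 tumor against 3 and no test. In male tumors (3 *K-Ctrl*, 1 *K-Setd2KO*) the difference of mean log2 CPM was −2.77 for *Fosb*, −1.60 for *Fos*, −1.95 for *Atf3* and 1.17 for *Egr1*. In female tumors (1 *K-Ctrl*, 3 *K-Setd2KO*) it was −1.93, −1.10, −0.13 and 0.20. *Jun* was lower in males (−0.69) and higher in females (0.52), as were *Jund* (−0.70 and 0.25) and *Junb* (−0.12 and 0.63). *Fosb*, *Fos*, *Atf3* and *Egr1* thus had the same sign in both sexes.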

How the data were processed

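RNA of 8 mouse lung tumors was measured by paired-end sequencing of TruSeq Stranded mRNA libraries. The authors deposited raw counts per gene, whole numbers with no normalization; the submitters' processing notes name STAR 2.5.2b, featureCounts 1.5.0-p1 and GRCm38.p4. The strand setting of counting is not given in the sources used here. Coordinates are those of the deposited table (GRCm38, 1-based), and symbols came from GENCODE M21, in which 48349 of 48709 identifiers (99.26%) were found.

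Counts were filtered with filterByExpr, scaled by TMM factors and tested between genotypes with the robust quasi-likelihood test of edgeR 4.0.16 in R 4.3.3, two-sided, with Benjamini-Hochberg adjustment over 14929 genes and an adjusted p threshold of 0.05. Standard errors (SE) were obtained from each log2 fold change and its F value. Log2 CPM used a prior count of 2. On simulated counts with the means and library totals of these tumors, the test recovered 90% of genes changed 2-fold. The simulation set a smaller variation between tumors than was estimated here (common biological coefficient of variation 0.337). It also left weakly expressed genes unchanged. The 90% therefore does not apply to the members, several of which varied more than the median gene. The study used DESeq2, run here (1.42.0) as an alternative beside limma voom (3.58.1), 2 other scalings, no filter, a filter of 10 counts in every tumor, a fit without robust estimation, a sex term, a replicate block and leaving out each tumor.

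The members were given by name, and members and gene lists were chosen with earlier results of these data known. Named genes were all members and, from each further list, up to 4 genes past the threshold with the smallest p, or the 1 with the smallest p where none passed. *Nr4a1*, *Nr4a2*, *Nr4a3*, *Dusp1*, *Zfp36*, *Junos*, *Prdx2*, *Gm11175*, *Mmp2* and *Socs3* were named after their values were seen. Promoters are from RefSeq (GRCm38.p6). Among target genes, 1 that passed is left out of the text.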

Additional observations from a re-analysis of the deposited data

Results flagged for a closer look

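For each member and each gene named from a list, the highest and lowest tumor of a group of 4 was set against the group's range in CPM. In 7 of 90 such groups 1 tumor stood apart from the other 3, and chance gives about 1 in 20 groups, here 4.5. *K-Setd2KO* replicate 2 was apart in *Fos* (134.85 CPM, against 23.8 to 26.5 in the other 3) and *Atf3* (39.16 CPM), and in *Egr3* (0.08 CPM), where that value is a single count. *K-Ctrl* replicate 3 was apart in *Fosb* (23.82 CPM, against 7.08 to 9.10). Outside the members, *K-Ctrl* replicate 1 was apart in *Pdgfra*, a fibroblast receptor gene (176.48 CPM), and *K-Ctrl* replicate 4 in *Krt18* (340.74 CPM) and *Napsa* (436.06 CPM), an epithelial keratin and an alveolar protease gene.

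*Jun* was the member in which every tumor of one sex lay on one side of its controls and every tumor of the other sex on the opposite side. The 1 male *K-Setd2KO* tumor was below all 3 male controls, and the 3 female *K-Setd2KO* tumors were above the 1 female control. The female minus male difference of the genotype differences was 1.22 log2 CPM, and it was not tested. The mean differences of *Jund* and *Junb* also had opposite signs in the sexes, with overlap between genotypes in 1 sex each (females for *Jund*, males for *Junb*).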

How the results depend on the processing

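Of 162 fold changes of members under alternatives, 154 kept both sign and side of the threshold. With tumors left out 1 at a time, log2 fold changes ran from −2.98 to −1.81 for *Fosb* (edgeR adjusted p 0.0146 to 0.0765), −1.80 to −0.46 for *Fos* (0.0245 to 0.729), −1.35 to −0.13 for *Atf3* (0.0330 to 0.909) and −0.51 to 0.08 for *Jun* (0.318 to 0.915), the last turning sign without *K-Ctrl* replicate 1. The count of members called lower ran from 0 to 3, of other immediate-early genes called lower from 1 to 11, of all genes called lower from 539 to 1284 and higher from 224 to 856, and of members without overlap from 2 to 5 (5 without *K-Setd2KO* replicate 2, where 28.1% of all tested genes did not overlap). The sex term left 0 members called (*Fosb* −2.38, edgeR adjusted p 0.0816) and 453 genes higher. DESeq2 called 8 other immediate-early genes lower and 1 higher, and 1867 genes lower and 1327 higher. With *K-Ctrl* replicate 3 and *K-Setd2KO* replicate 2 both left out, chosen after seeing the data, *Fosb* stayed called (−2.42, edgeR adjusted p 0.0280), 5 members did not overlap (nor did 30.6% of all tested genes), and 428 genes were lower and 280 higher. Within males 9 members did not overlap and within females 4, where 1 tumor stood against 3 and 73.4% and 60.6% of all tested genes did not overlap. The cause of these shifts was not tested.

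The replicate block gave *Fosb* −2.37 (edgeR adjusted p 0.0406), 1 other immediate-early gene called higher (*Socs3*), and 403 genes higher. The numbers are not said to pair tumors, and deviations of same-numbered tumors correlated at −0.074 to 0.191, over 0.1 in 1 of 4 pairs. At 4 tumors a group and 0.141 to 0.517 CPM for 3 counts, *Egr3* was measured at 3 to 7 counts in *K-Ctrl* and at 0 or 1 in *K-Setd2KO*.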
